A study of Gallus gallus with 8 samples.

Results

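The later-named chicken miRNAs are those whose miRNA number is 2000 or higher. They were taken from the deposited matrix as every row with such a number, any letter or arm, apart from miR-2954, with reads in at least 2 of the 8 libraries. Of 994 rows in all, 362 had such a number, and 129 of these, from 110 hairpins, met the detection rule and are described here. The members were selected on their measured detection over all 8 libraries, so how many libraries held a miRNA is a description and carries no test.

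Small RNA was sequenced from surface ectoderm of the chick face, taken at the frontonasal ectodermal zone, which patterns the upper beak and comes to express Sonic hedgehog (SHH). All embryos were untreated Rhode Island Red chickens with no genetic change. They had been incubated for 48 h and were at Hamburger-Hamilton stage 18 (HH18), before SHH is expressed there, or for 72 h and at stage 22 (HH22), after its onset, to find miRNAs that change around that onset. Each stage had 4 samples (replicates 5 to 8 at HH18 and 1 to 4 at HH22), each sample pooled 2 chicks, and all libraries were made from total RNA.

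A miRNA is cut from a hairpin transcript as a short strand from its 5′ arm (5p) or its 3′ arm (3p), is loaded into an Argonaute protein, and lowers the output of mRNAs that pair with its seed. miRNA numbers are given in the order in which sequences are registered, so that the low numbers hold the widely conserved families and the high numbers hold sequences found later by deep sequencing. Later-named miRNAs are often scarce and often known from 1 species or a few, and some entries were afterwards recognised as pieces of other small RNAs, such as small nucleolar RNAs (snoRNAs), which guide the chemical modification of ribosomal RNA.

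The libraries held 6276121 to 31318393 reads at HH18 and 46912793 to 88471588 at HH22, so that depth and stage cannot be told apart. Levels are given as normalized counts, which are reads divided by the size factor of the library, and 1 read was worth 0.336 to 4.18 normalized counts. Summed markers of epithelium stood at 263830 to 375392 normalized counts at HH18 and 453494 to 612253 at HH22, with all 8 marker features detected. Mesenchymal markers summed to 25750 to 29651 and 40465 to 44706 (all 6 features detected), neural markers to 45942 to 67366 and 49071 to 58479 (all 12), blood and endothelial markers to 233 to 14371 and 306 to 2084 (all 8, highest in HH18 replicate 5) and striated muscle markers to 0 to 38.2 and 12.6 to 91.99 (5 of 11). A sum can be set by a few abundant features. In the stage test described below, 2 of 8 tested epithelial features passed as higher at HH22 and 1 as lower. Of 9 neural features 1 was higher and 1 lower, of 5 mesenchymal 3 were higher and 0 lower. Of 8 blood and endothelial features 0 passed, and of 3 muscle features 1 was higher, beside 14.6% of all tested miRNAs. The part of these cell types in the values below was not tested, and in such bulk samples fewer cells of a type and less RNA per cell cannot be told apart.

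The later-named miRNAs were a minor part of the small RNA in this ectoderm. Of all reads in an HH18 library, 0.0343% ± 0.00722 came from them, and in an HH22 library 0.02599% ± 0.00321 (SD, 4 libraries a stage). The shares of 0.0293% to 0.0449% and 0.0215% to 0.0291% did not overlap, by a narrow margin. With the 5 most abundant miRNAs left out of the total, the shares were 0.405% to 0.661% at HH18 and 0.287% to 0.322% at HH22, also without overlap. Their summed level averaged 9658 normalized counts at HH18 (SD 1637) and 7727 at HH22 (SD 700.2), and the ranges of 8155 to 11792 and 7032 to 8580 overlapped. The single most abundant of them, miR-6542-3p, ranked only 69th among all rows. The excluded bird miRNA miR-2954 alone was 20.6 times as abundant as miR-6542-3p.

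Within the list most of the level came from a few miRNAs. The 5 most abundant held 52.3% of the summed level and the 12 most abundant 70.6%. By mean level over the 8 libraries, 1 miRNA stood at 1000 normalized counts or more, 15 between 100 and 1000, 49 between 10 and 100, and 64 under 10. The median miRNA of the list had 113 reads over all 8 libraries and a mean of 10.2 normalized counts, beside medians of 12.3 for the 164 miRNAs of the 1000s and 224 for the 214 numbered below 1000 that met the same detection rule.

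Detection was lower in this number range than in the others. It was met by 35.6% of the rows numbered 2000 and above, 45.3% of those of the 1000s and 79.6% of those numbered below 1000. A further 68 later-named rows had reads in 1 library only and 165 in none. The rows just outside the rule, with reads in 1 library, held a median of 8 reads (1 to 84), and the 29 just inside it, with reads in 2 libraries, a median of 18 (2 to 113). Reads in all 8 libraries were found for 26 of the 129, and for 138 of the 214 miRNAs numbered below 1000.

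Blocks of 1000 numbers differed in what was detected. In the 2000s, 8 of 9 rows met the rule, with a median level of 23.7 normalized counts, and in the 3000s 16 of 27 did, with a median of 65.5. The 6000s held the bulk of the list, with 87 of 231 rows and a median of 9.72. In the 7000s 17 of 94 rows met the rule, with a median of 9.27, and the 1 row of the 4000s, miR-4732-5p, had a mean of 1.85.

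More of the later-named miRNAs were detected in the deeper libraries. At least 1 read was found for 46, 46, 80 and 74 of the 129 in HH18 replicates 5 to 8 and for 107, 85, 91 and 85 in HH22 replicates 1 to 4. The 2 lowest counts belong to the 2 shallowest libraries, and the stages did not overlap. When the reads of each library were thinned in closed form to the depth of the shallowest one, the expected numbers were 43.8 to 69.2 at HH18 and 70.3 to 85.4 at HH22. When only levels that give 3 reads in the shallowest library were counted (12.5 normalized counts), the numbers were 40, 36, 58 and 55 at HH18 and 58, 59, 57 and 58 at HH22. At that common level the deeper pair of HH18 libraries, replicates 7 and 8, lay within 4 of every HH22 library. Among the 214 miRNAs numbered below 1000 that met the rule, 162 to 180 were detected at HH18 and 191 to 203 at HH22. Thinned to the shallowest depth, 162 to 174.6 and 182.1 to 191.8 of them were expected, so that their stages did not overlap either. Both lists were chosen by reads at full depth, to which the deeper HH22 libraries gave more. Thinning does not take depth out of that choice, so no stage difference is read from the thinned numbers.

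**Figure D1:**
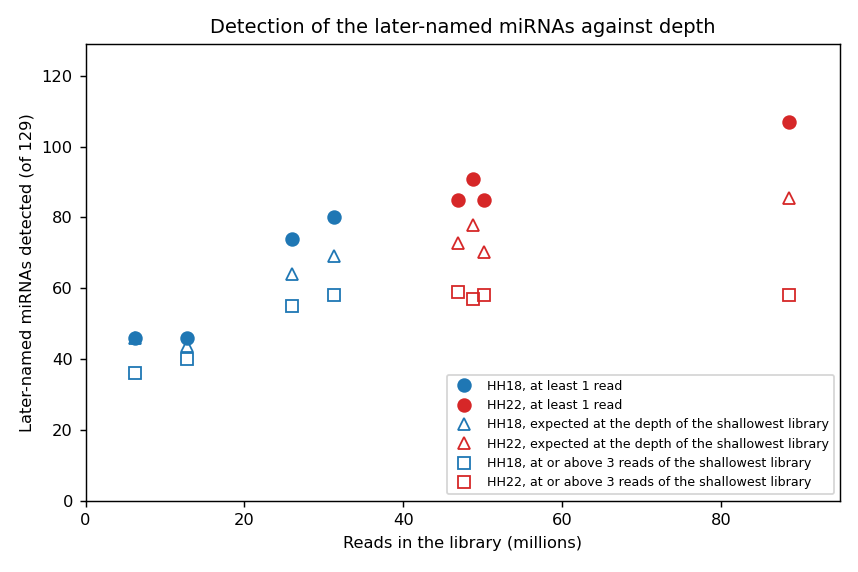
Number of later-named miRNAs detected (of 129, y axis) against the reads in each library (x axis), for HH18 (blue) and HH22 (red). Filled circles count miRNAs with at least 1 read and rise from 46 to 107, triangles give the number expected at the depth of the shallowest library, and squares, which count miRNAs at 12.5 normalized counts or more, lie between 57 and 59 at HH22.

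Of the 129 miRNAs, 100 had reads at both stages, 27 had reads at HH22 only and 2 at HH18 only. The size factors summed to 7.87 at HH22 and 2.71 at HH18, so that depth and stage cannot be told apart in this split. The same split over all miRNAs was not counted. Of the 27, 19 had reads in exactly 2 HH22 libraries, 5 in 3 and 3 in all 4. At their HH22 level, from 0.689 reads for miR-6640-5p to 54.8 for miR-6590-3p would be expected over the HH18 libraries. None had reads in 3 or more HH18 libraries and 0 at HH22.

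The most abundant later-named miRNA was miR-6542-3p, whose gene overlaps SRF, the gene of serum response factor, in the RefSeq annotation of the GRCg7b assembly. Only gene names and neighbours were taken from that annotation, and no strand. miR-6542-3p measured 1136, 2764, 1874 and 2240 normalized counts in HH18 replicates 5 to 8 and 1119, 1487, 978 and 970 in HH22 replicates 1 to 4. HH18 replicate 5 alone lay within the HH22 range, and the other HH18 libraries were higher than every HH22 library. The log2 fold change from HH18 to HH22 was -0.77 (SE 0.28) and did not pass (limma-trend adjusted p = 0.101). It passed without HH18 replicate 5 (log2 fold change -1.01, limma-trend adjusted p = 0.015) and without both shallow HH18 libraries, replicates 5 and 6 (-0.87, adjusted p = 0.0243). Both leave out the overlapping library, so they are no separate evidence, and miR-6542-3p passed in only 3 of the 23 alternatives. Its 5p arm had 0 reads in all libraries.

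miR-2131-3p, whose gene overlaps NCBP1, the gene of a nuclear cap-binding protein, was second. It stood at 896, 1338, 529 and 1207 normalized counts at HH18 (replicates 5 to 8) and 942, 997, 707 and 933 at HH22 (replicates 1 to 4). The HH22 libraries all lay within the HH18 range, and the log2 fold change was -0.08 (SE 0.30, limma-trend adjusted p = 0.894). Its sign turned in 6 of the 23 alternatives, with values of at most 0.15.

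The other arm of the same hairpin, miR-2131-5p, was scarcer and varied more. Its levels were 16.2, 159, 41.6 and 10.2 normalized counts at HH18 and 183, 117, 166 and 45.02 at HH22. The ranges overlapped through HH18 replicate 6 alone, and the log2 fold change of 1.75 (SE 0.97) did not pass (limma-trend adjusted p = 0.301). The ratio of the 3p to the 5p arm was 8.42 to 118.5 at HH18 and 4.26 to 20.7 at HH22, with overlap, and was above 1 in all 8 libraries.

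**Figure D2:**
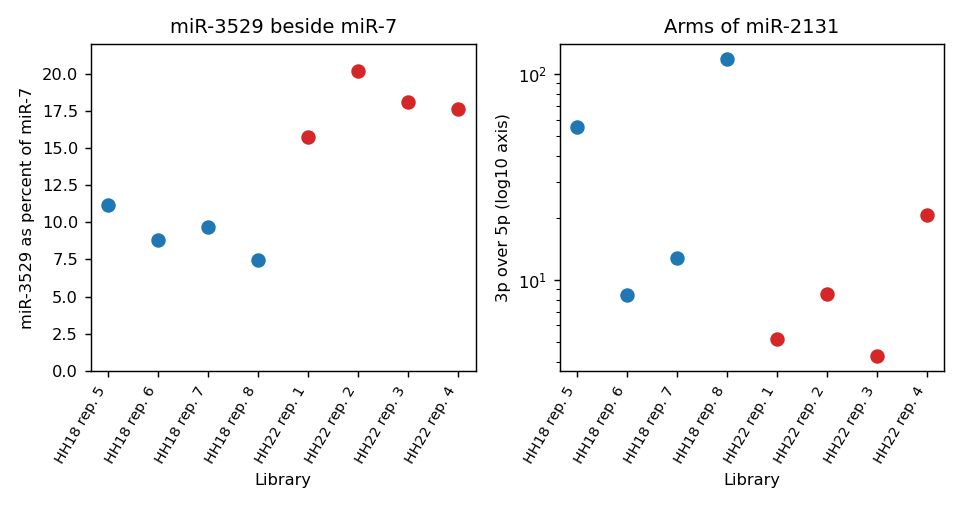
Ratios within each library (x axis, HH18 blue, HH22 red). The left panel gives miR-3529 as a percent of miR-7, 7.47 to 11.2 at HH18 and 15.7 to 20.2 at HH22, and the right panel the ratio of the 3p to the 5p arm of miR-2131 on a log10 axis, from 4.26 to 118.5.

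miR-6599-3p, whose gene overlaps ASPSCR1, a gene for a tether of glucose transporter vesicles, was lower in every HH22 library than in any HH18 library. It measured 1226, 1146, 964 and 829 normalized counts at HH18 and 629, 765, 662 and 575 at HH22. The log2 fold change was -0.65 (SE 0.22), which did not pass over all tested miRNAs (limma-trend adjusted p = 0.0781). Its 5p arm had 5 reads in all, so that the hairpin was read almost wholly from its 3p arm, at a ratio of 1520.

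miR-3529 comes from a gene that overlaps MIR7-2, one of the genes of miR-7, a miRNA of neuroendocrine and sensory cells. miR-3529 stood at 469, 514, 515 and 411 normalized counts at HH18 and 531, 896, 953 and 776 at HH22, so that every HH22 library was above every HH18 library. Its log2 fold change of 0.69 (SE 0.26) did not pass (limma-trend adjusted p = 0.112). miR-7 itself averaged 5216 normalized counts at HH18 and 4374 at HH22 and had a log2 fold change of -0.26 (limma-trend adjusted p = 0.374). Taken as a percent of miR-7 in the same library, which no scaling of libraries can change, miR-3529 was 11.2, 8.82, 9.67 and 7.47 at HH18 and 15.7, 20.2, 18.1 and 17.6 at HH22, with no overlap. This ratio was chosen after its values were seen and carries no test.

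Among the next most abundant were pieces of snoRNA genes. The annotation lists the hairpin of miR-3538 under SNORD83A, within RPL3, and that of miR-3535 under SNORD20, within NCL; both host genes, for a ribosomal protein and for nucleolin, are known to carry snoRNAs in their introns. miR-3538 measured 596, 715, 493 and 409.9 normalized counts at HH18 and 726, 650, 416 and 367 at HH22, with full overlap (log2 fold change -0.06 with an SE of 0.31, limma-trend adjusted p = 0.92). miR-3535 measured 164, 301, 187 and 134 at HH18 and 305, 289, 347 and 299 at HH22. HH18 replicate 6 alone reached the HH22 range, and the log2 fold change of 0.72 (SE 0.37) did not pass (limma-trend adjusted p = 0.261). Another member, miR-3607-3p, whose human namesake is also known as a snoRNA fragment and which was chosen after its values were seen, stood at 23.1 to 93.5 at HH18 and 104 to 148 at HH22, without overlap (log2 fold change 1.48, SE 0.71, limma-trend adjusted p = 0.218).

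miR-7475-5p, whose gene overlaps CEP63, a centrosome gene, showed the lowest unadjusted p among the abundant members after miR-6599-3p. It was measured at 208, 376, 288.5 and 472 normalized counts at HH18 and 158, 185, 115 and 115.5 at HH22. No HH22 library reached the HH18 range. The log2 fold change was -1.19 (SE 0.41, limma-trend adjusted p = 0.0826), and it passed without HH18 replicate 5 (log2 fold change -1.40, limma-trend adjusted p = 0.0382). That replicate held its lowest HH18 value, and miR-7475-5p passed in only 3 of the 23 alternatives.

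The remaining members of the 12 most abundant did not pass either. miR-6604-5p, within RRP12, a ribosome biogenesis gene, ranged from 146 to 471 at HH18 and 123 to 257 at HH22. miR-6631-5p (ITPKC, an inositol phosphate kinase gene) ranged from 134 to 314 and 134 to 285, and miR-3523 (DUSP1, a MAP kinase phosphatase gene) from 58.5 to 430.2 and 189 to 248. miR-6659-3p (EXOC4, an exocyst gene) ranged from 109 to 665 and 115 to 210.1. miR-6689-3p (KLHL9, a ubiquitin ligase adaptor gene) ranged from 188 to 330.1 and 76.7 to 180.2 and was the one of these 5 whose stages did not overlap (log2 fold change -0.78, SE 0.45, limma-trend adjusted p = 0.323). The HH18 extremes of miR-3523, its lowest, and miR-6659-3p, its highest, both came from replicate 6, the shallowest library.

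**Figure D3:**
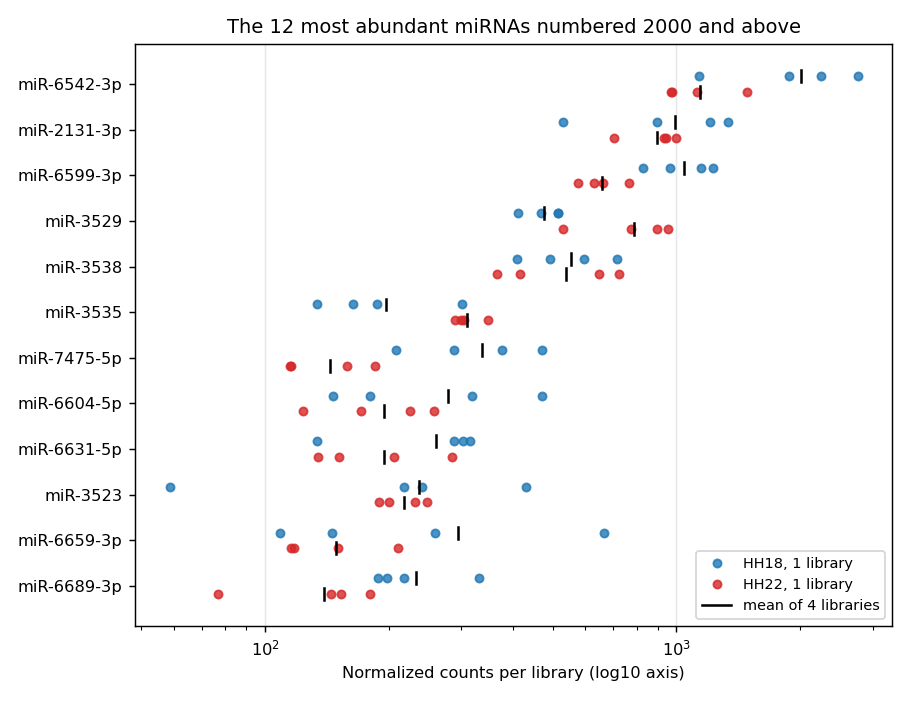
Normalized counts per library (log10 x axis) of the 12 most abundant later-named miRNAs, with HH18 in blue, HH22 in red and the mean of 4 libraries as a black bar. The stages separate for miR-6599-3p, miR-3529, miR-7475-5p and miR-6689-3p and overlap for the other 8, and none of the 12 passed the threshold. Over all 356 tested miRNAs the stages did not overlap for 20.2% (11.5% higher and 8.71% lower at HH22).

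The stage change was tested with limma-trend on log2(normalized count + 1) over every miRNA that reached a normalized count of 1 in 4 or more libraries. P-values were adjusted over all of these by Benjamini-Hochberg, and an adjusted p under 0.05 passed. Fold changes are differences of mean log values. They understate the change of a miRNA that is low in all libraries, and where a library of a stage has 0 reads they can exceed, or differ in sign from, the ratio of the stage means. For miR-3525 the log2 fold change was 2.98, whereas its mean was 68.1 normalized counts at HH18 and 93.5 at HH22. Of the 129 later-named miRNAs 74 were tested, and the 55 left out had a median level of 3.60 normalized counts (at most 18.7). Among the 74, 2 passed as higher at HH22 and 0 as lower. Both of the 2 met the filter through their HH22 values alone, as set out below. Over all 356 tested miRNAs 14.6% passed (9.83% higher, 4.78% lower), and 19.9% of the 191 tested miRNAs numbered below 1000 and 13.3% of the 90 of the 1000s did. The difference between these shares was not tested. Of the 52 that passed, 30 had a mean of 1000 normalized counts or more, a level with 78 other tested miRNAs and 1 later-named one. Between 100 and 1000, 0 of 15 later-named miRNAs and 9 of 86 others passed. From 10 to 100 these were 0 of 43 and 7 of 93, and under 10 they were 2 of 15 and 4 of 25.

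At an unadjusted p under 0.05 stood 9 of the 74, 5 higher and 4 lower, beside 25% of all tested miRNAs (16% higher and 8.99% lower). By voom, a version of limma for reads, 10 of the 74 stood at an unadjusted p under 0.05, beside 99 of all 356 tested miRNAs. At an adjusted p under 0.05 by voom 3 passed, 2 higher and 1 lower, beside 47 of all 356 tested miRNAs. The stages did not overlap for 10 of the 74, 5 in each direction, beside 20.2% of all tested miRNAs (11.5% higher and 8.71% lower). The median log2 fold change was 0.26 for the 74 (46 above 0 and 28 below) and 0.38 for all tested miRNAs. Only 2 of the 74 and 7 of all tested miRNAs had 0 reads in a whole stage. Neither median moved when such a stage was set at a floor of 3 reads, which left values of 0 in single libraries as they were. By the ratio of the stage means, a measure added after the data were seen, 31 of the 74 were higher at HH22 and 43 lower, and over all tested miRNAs 187 were higher and 169 lower. The 15 later-named miRNAs with a log2 fold change above 0 and a lower mean at HH22 include miR-3523, at a mean of 237 and 217. Without the 2 shallowest HH18 libraries the median was 0.0088 for the 70 later-named miRNAs then tested. It was 0.18 (of 72) without HH18 replicate 5 and 0.10 (of 72) without replicate 6. Without replicate 7 it was 0.59 (of 65) and without replicate 8 0.87 (of 65). The filter was applied anew in each case, so these medians are of differing sets of miRNAs. No direction of the list as a whole is therefore stated. When libraries were scaled by their total without the 5 most abundant miRNAs, which hold 92.4% of the normalized counts, the median of all tested miRNAs was -0.05, 2 of the 74 passed as higher and 4 as lower, and of all tested miRNAs 24 were higher and 47 lower in place of 35 and 17. Those 4 were miR-6542-3p, miR-6599-3p, miR-7475-5p and miR-6564-3p, with log2 fold changes of -1.23, -1.12, -1.65 and -4.24 (limma-trend adjusted p = 0.00738, 0.00861, 0.0144 and 0.041).

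**Figure D4:**
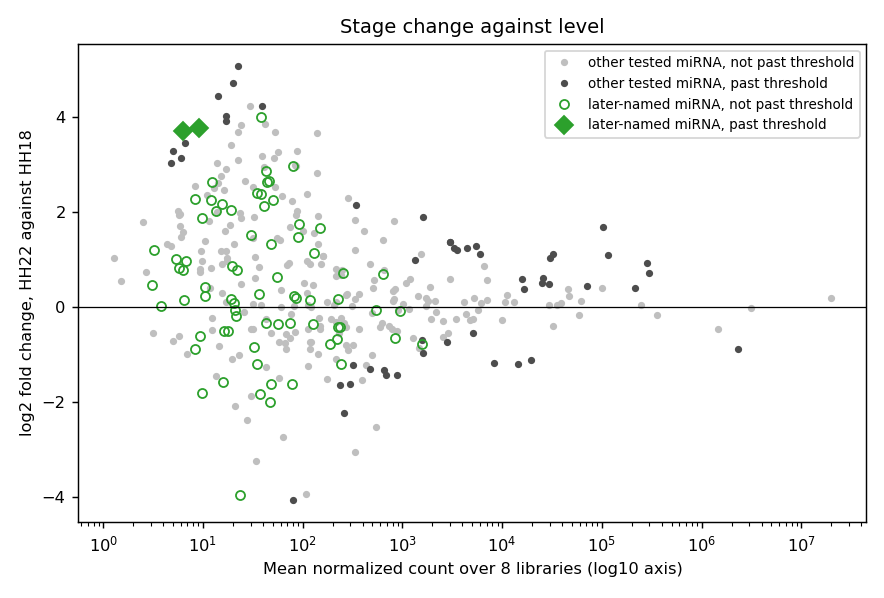
Log2 fold change from HH18 to HH22 (y axis) against mean normalized count (log10 x axis) for the 356 tested miRNAs, with the 74 later-named ones in green and the rest in grey. The 2 that passed (diamonds) have means under 10, and most later-named miRNAs lie below 100, where fold changes scatter widely.

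The error of the fold change differed with the level. The median standard error of the log2 fold change was 1.33 for the 74 and 0.51 for the tested miRNAs numbered below 1000. In the range of 10 to 100 normalized counts, where 43 of the 74 lie, it was 1.5 for them and 1.43 for the other 93 tested miRNAs. Under 10 it was 1.14 for 15 later-named miRNAs and 1.15 for 25 others. Between 100 and 1000 it was 0.45 for 15 later-named miRNAs and 0.55 for 86 others.

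The 2 miRNAs past the threshold had reads at HH22 only and could enter the test only by differing between the stages. miR-6695-5p, whose gene overlaps WNT3, a gene for a secreted WNT ligand, had 0 reads in each HH18 library and 9.06, 15.7, 9.66 and 15.7 normalized counts in HH22 replicates 1 to 4. All 4 HH22 libraries were close to each other, at 93 reads in all. Its pooled HH22 level was 10.7 times a floor of 3 reads over the 4 HH18 libraries (limma-trend adjusted p = 0.00956). Only the HH18 side of such a ratio is bounded, and the spread of the HH22 libraries is not in it. At the HH22 level the 4 HH18 libraries together would be expected to hold 32.03 reads.

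miR-6590-3p, whose gene overlaps ATG2A, a gene for a lipid transfer protein of autophagy, had 0 reads in each HH18 library and 27.5, 8.79, 33.5 and 2.61 normalized counts at HH22. Its pooled HH22 level was 18.3 times the same floor (limma-trend adjusted p = 0.0228), and 54.8 reads would be expected at HH18 at the HH22 level. The HH22 values spread more than 10-fold, and the call was lost without HH18 replicate 6 or 8 (limma-trend adjusted p = 0.0518 in both cases), without both shallow HH18 libraries (0.0809) and with a pseudocount of 5 (0.0551). Its 5p arm had reads in HH22 replicate 4 only.

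Both miRNAs entered the test through their HH22 values alone, so that a miRNA admitted in this way had to differ between the stages. With any HH22 library left out they no longer met the filter of 4 libraries, and with a filter of 3 libraries, added after the data were seen, miR-6695-5p passed in all 4 cases (limma-trend adjusted p = 0.0117 to 0.0312) and miR-6590-3p in 3 of 4, failing without HH22 replicate 1 (adjusted p = 0.0683). That filter again admitted both through their HH22 values alone, so these passes are no separate evidence of a stage change. With no filter neither passed (limma-trend adjusted p = 0.0955 and 0.138).

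The other 6 miRNAs with reads in 3 or more HH22 libraries and 0 at HH18 did not meet the filter of 4 libraries. They have no adjusted p in the main test. Of them miR-6553-3p, miR-2188-3p and miR-4732-5p each passed in 1 of the 2 alternatives that tested them. That was with a filter of 3 libraries, met through HH22 values alone, so these passes are no separate evidence. miR-6553-3p, within VAMP1, a vesicle fusion gene, had 24.2, 22, 9.09 and 0 normalized counts in HH22 replicates 1 to 4. Its pooled HH22 level was 14.1 times the same floor, again with only the HH18 side bounded. miR-6582-3p, within MED23, a Mediator gene, had 0, 5.02, 38.7 and 3.91 (9.41 times the floor, with 68 of 82 reads in replicate 3). miR-2188-3p, a miRNA also known from fish and amphibians, whose gene overlaps ANK1, an ankyrin gene of red blood cells, had 8.72, 8.16, 0 and 14.4 (7.00 times the floor). Its 5p arm had 15 reads, all at HH22. miR-3524a and miR-4732-5p had 30 and 28 reads, and miR-6681-5p had 5 reads spread over all 4 HH22 libraries, too few for a pooled level above the floor.

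**Figure D5:**
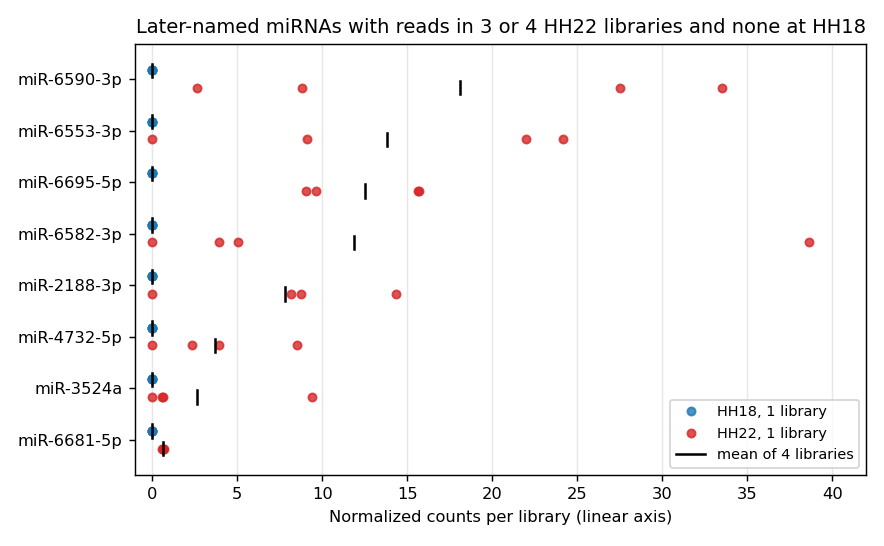
Normalized counts per library (linear x axis) of the 8 later-named miRNAs with reads in 3 or 4 HH22 libraries (red) and none at HH18 (blue), black bars marking means. miR-6695-5p has its 4 HH22 values between 9.06 and 15.7, whereas those of miR-6590-3p run from 2.61 to 33.5.

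Several large fitted fold changes moved with single HH18 libraries. miR-2130, whose gene overlaps ATF7, a transcription factor gene, had 0, 0, 37.6 and 1.27 normalized counts at HH18 and 74.8, 79.7, 7.96 and 103 at HH22 (log2 fold change 4.00, SE 1.49, limma-trend adjusted p = 0.111). Without HH18 replicate 7 it passed (log2 fold change 5.22, adjusted p = 0.0155). That replicate held its highest HH18 value, and miR-2130 passed in only 1 of the 23 alternatives. miR-6675-3p lies beside MIR100 and MIRLET7A2 in the annotation, the genes of the most abundant miRNA of this tissue and of a let-7 member. It had 104, 0, 11.2 and 1.27 normalized counts at HH18 and 54.4, 28.9, 84.1 and 58.1 at HH22 (log2 fold change 2.87, SE 1.49, limma-trend adjusted p = 0.261). Without HH18 replicate 5, its highest HH18 value, it passed (log2 fold change 4.15, limma-trend adjusted p = 0.0401), in only 1 of the 23 alternatives.

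The other large positive values were those of miR-3525, miR-6705-5p and miR-6549-5p. miR-3525 had 0, 0, 125 and 148 normalized counts at HH18 and 69.7 to 129 at HH22 (log2 fold change 2.98, SE 1.76, limma-trend adjusted p = 0.325). Its values of 0 fall in HH18 replicates 5 and 6, where 1 read was worth 2.31 and 4.18 normalized counts. Without these libraries the log2 fold change was -0.57. Why they held no reads of miR-3525 was not tested. miR-6705-5p, within FGFRL1, an FGF receptor-like gene, had 2.31, 0, 18.4 and 115 at HH18 and 40.4 to 73.1 at HH22. miR-6549-5p, in a region shared by ZCCHC11 and ZYG11A, had 97, 0, 24.8 and 1.27 at HH18 and 31.3 to 79.1 at HH22. Neither of these passed (limma-trend adjusted p = 0.295 and 0.308). miR-7449-3p, within DYNC2H1, a ciliary motor gene, was chosen after its values were seen. It had 32.3, 4.18, 13.6 and 6.36 at HH18 and 43.6, 55.2, 76.2 and 72.4 at HH22, without overlap (log2 fold change 2.40, SE 1.02, limma-trend adjusted p = 0.166).

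The largest negative value was that of miR-6564-3p, whose gene overlaps GNAS, the gene of a stimulatory G protein subunit that is imprinted in mammals. It had 18.5, 142, 4.00 and 19.1 normalized counts at HH18 and 0, 0, 3.98 and 0 at HH22, without overlap, although HH18 replicate 7 and HH22 replicate 3 all but met. Its log2 fold change was -3.94 (SE 1.23, limma-trend adjusted p = 0.0567). It passed by voom (adjusted p = 0.0356) and without HH18 replicate 7, its lowest HH18 value (limma-trend adjusted p = 0.0191). In all it passed in 3 of the 22 alternatives in which it was tested.

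The other large negative values came with wider errors. miR-6573-3p had 0, 226, 29.6 and 67.5 normalized counts at HH18 and 0 to 33.3 at HH22, and miR-6677-3p had 178, 0, 0 and 92.9 at HH18 and 0 to 27.9 at HH22. Their log2 fold changes were -2.0 (SE 1.82) and -1.83 (SE 1.95). miR-6547-5p, within ERBB2, a receptor tyrosine kinase gene, had 125, 134, 23.2 and 204 at HH18 and 9.79 to 59.6 at HH22 (log2 fold change -1.62, SE 0.96). miR-6551-5p, within BAIAP2, an actin regulator gene, had 53.1 to 109 at HH18 and 10.2 to 43.9 at HH22, without overlap (log2 fold change -1.61, SE 0.88, limma-trend adjusted p = 0.29). None of these 4 passed.

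Single libraries dominated many of the later-named miRNAs. Of all 129, 62 held more in 1 library than in the other 7 together, 32 of them in an HH18 library and 30 in an HH22 library. The 29 with reads in exactly 2 libraries are among the 62 by construction. Of the 65 later-named miRNAs whose mean reached 10 normalized counts this held for 18, and for 16 of these it was an HH18 library (5, 6, 1 and 4 in replicates 5 to 8). HH18 libraries also led in the other number ranges at that level. It held for 21 of 187 miRNAs numbered below 1000 (13, 6, 1 and 0 in HH18 replicates 5 to 8). Of 90 in the 1000s it held for 24 (7, 5, 4 and 4). In the range of 10 to 100 this was 36.7% of 49 later-named miRNAs and 29.8% of 114 others. miR-7471-5p, chosen after its values were seen, had 145 normalized counts (63 reads) in HH18 replicate 5 and at most 2.51 in any other library. miR-6568-5p, chosen in the same way, had 393 (94 reads) in HH18 replicate 6 and at most 42.7 elsewhere.

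Few hairpins had both arms in the list. An arm outside the list can still have reads, in 1 library. The 5p arm of miR-6575 was such a case, with 72 reads beside 80 of its 3p arm. Both arms were listed for 114 later-named hairpins, of which 19 had both arms in the list of 129, 40 had one (18 the 5p and 22 the 3p arm) and 55 had neither. Among the 19 the 3p arm was the more abundant in 12 and the 5p arm in 7, with a median ratio of the abundant over the other arm of 4.96 (1.17 to 1520). By reads over all libraries, a measure added after the data were seen, it was the 3p arm in 14 and the 5p arm in 5. The hairpins that turned were miR-7471 and miR-6568, whose 5p arms are the ones described above with most of their level in 1 HH18 library. miR-6516-3p, from a hairpin also known in mammals, had 0 to 9.59 normalized counts at HH18 and 1.30 to 15.1 at HH22, and its 5p arm had 0 reads (log2 fold change 0.82, SE 1.09, limma-trend adjusted p = 0.673).

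By their annotated neighbours the later-named hairpins were mostly placed within protein-coding genes. Of the 110 hairpins 104 could be matched to a gene of the annotation by name. Of these, 88 (84.6%) overlapped a protein-coding gene, beside 69.7% of 132 hairpins numbered below 1000 and 79.3% of 135 of the 1000s that met the same detection rule. Another annotated miRNA gene lay within 10 kb of 8 (7.69%) of them, beside 66.7% and 9.63%. These shares are descriptions, without a test.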

How the data were processed

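The authors deposited 1 table with a log2 value per miRNA and library, and the labels do not say how these log2 values were made. Tools listed in the submitters' processing notes are kallisto 0.44.0, cutadapt 1.8.1 and bcl2fastq. Which step used which tool, and on which build, is not given in the sources used here. All libraries share 1 lowest value. It was taken to stand for 0 reads, a variance-stabilizing transformation in closed form was inverted, and 100% of the inverted values above 0 were whole multiples of 1 step per library (tolerance 0.001). The reciprocal of that step was identical to a size factor by median of ratios over 200 miRNAs. Reads are therefore estimated, rounded counts, and related miRNAs may share them.

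The stage test was limma-trend (limma 3.58.1 in R 4.3.3) on log2(normalized count + 1) of the inverted values, and voom on the recovered reads was an alternative (with pandas 2.3.3, numpy 2.4.6, scipy 1.17.1 and matplotlib 3.10.9 in Python 3.11.15). The procedure was run on simulated counts with and without known changes, whose outcome is not used here. Those counts were not built to hold miRNAs with 0 reads in a whole stage. Named miRNAs were those past the threshold, the 12 most abundant, the 5 largest changes each way with a mean of at least 10, those with reads in at least 3 libraries of 1 stage and 0 in the other, a short list with namesakes in other vertebrates (its members miR-2184 and miR-2964 are not analysed here), and their other arms. The members and lists were chosen with earlier results of these data known. Nothing says whether pools were prepared independently, so p-values measure the spread between these samples. Floors cover only the counting error of the stage with 0 reads.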

Additional observations from a re-analysis of the deposited data

Results flagged for a closer look

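In the 74 sets of 4 libraries formed by the named later-named miRNAs at each stage, 10 had 1 library far from the other 3 by Dixon's criterion. Normally distributed values meet it in about 1 of 20 sets. Many of these sets hold values of 0, some hold nothing else, and several miRNAs were named for large changes. The 10 are therefore not weighed against that rate. At HH18, miR-2130 had 37.6 normalized counts in replicate 7 (at most 1.27 in the others), miR-6564-3p 142 in replicate 6 (4.00 to 19.1), miR-6675-3p 104 in replicate 5 (0 to 11.2) and miR-6705-5p 115 in replicate 8 (0 to 18.4), and miR-6631-5p was low, at 134, in replicate 8 (289 to 314). At HH22, miR-2188-5p had 4.70 in replicate 1 (at most 0.652), miR-3524a 9.39 in replicate 1 (at most 0.628), miR-6564-3p 3.98 in replicate 3 (0 in the others), miR-6582-3p 38.7 in replicate 3 (at most 5.02) and miR-6677-3p 27.9 in replicate 3 (at most 2.68).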

How the results depend on the processing

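The number of later-named miRNAs past the threshold was 2 and stayed within 1.5 times of it in the other alternatives. It was 1 with a pseudocount of 5, 0 with no filter (limma; 17 with an unadjusted p under 0.05), 0 with a mean of at least 10 (7 with an unadjusted p under 0.05), 6 when scaled by library size without the 5 most abundant miRNAs (added after seeing the data), 4 without the 2 shallowest HH18 libraries, and 0 to 6 with 1 library left out. Leaving out HH18 replicates 5 to 8 gave 6, 1, 5 and 1, and leaving out any HH22 replicate gave 0 (limma; 5 or 6 with an unadjusted p under 0.05), since the 2 miRNAs then failed the filter. With a mean of at least 10 the 2 were not tested either, as their means were 9.06 (miR-6590-3p) and 6.26 (miR-6695-5p). Leaving out HH22 replicates 1 to 4 with a filter of 3 libraries gave 1, 3, 3 and 4. Every later-named miRNA that passed there met the filter through its HH22 values alone and so had to differ between the stages. These counts are no separate evidence of a stage change. Over all tested miRNAs 52 passed, 46 with a pseudocount of 5 and 24 of 651 with no filter (108 with an unadjusted limma p under 0.05). With a mean of at least 10, 41 of 348 passed (86 with an unadjusted limma p under 0.05). Scaling without the 5 most abundant gave 71, and leaving out the 2 shallowest HH18 libraries 53. Leaving out HH18 replicates 5 to 8 gave 55, 40, 66 and 35. For HH22 replicates 1 to 4 these were 27, 29, 29 and 27, and with a filter of 3 libraries 31, 39, 42 and 40. The mean number detected at HH22 was 92, 58 at the common level and 76.6 when thinned. Without the 5 most abundant miRNAs in the total, the share of the list was 0.521% (HH18) and 0.2998% (HH22).

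Of 618 values for the 28 named and tested miRNAs, 578 kept their direction and side of the threshold, 12 passed newly, 7 no longer passed and 21, from 6 miRNAs with adjusted p above 0.3, changed sign, for causes not tested. These were miR-2131-3p (0.087 by voom, 0.15 without the 2 shallowest libraries, and -0.35 to 0.096 with 1 library left out, above 0 without HH18 replicate 6 or 8 or, at 0.033 with either filter, HH22 replicate 3), miR-3538 (0.0896 by voom, 0.20 without the shallowest, and -0.23 to 0.10 with 1 left out, above 0 without HH18 replicate 6 or, with either filter, HH22 replicate 3 (0.041) or 4 (0.10)), miR-3523 (-0.29 scaled without the 5 most abundant, -0.18 by voom, -0.57 without the shallowest, and -0.39 to 0.57 with 1 left out, below 0 without HH18 replicate 6), miR-3525 (-0.57) and miR-6604-5p (0.20), both without the shallowest, and miR-6677-5p (-1.39 to 0.21 with 1 left out, above 0 without HH22 replicate 2). No paired analysis was possible because the stages share no replicate numbers. At HH18, 3 reads stood at 2.40 to 12.5 normalized counts.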
